A study of Mus musculus with 15 samples.

Results

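The transcriptome of mouse islets that overexpressed a constitutively active form of Nfatc1 (ca-Nfatc1) was compared with that of islets that overexpressed GFP. The 10 libraries used were the 5 labelled ca-Nfatc1 and the 5 labelled GFP, of 15 in the series, and on each of 5 dates in the labels there was 1 of each. All held total RNA of whole pancreatic islets from C57BL/6 mice, with no genetic change in the animals given by the labels, taken 48 hr after transduction with an adenovirus. On each date the islets of several mice had been pooled, and each pool was divided over the viruses for GFP, ca-Nfatc1 and ca-Nfatc2. The other 5 libraries, from ca-Nfatc2 islets, shared the estimate of the spread. They are named for some genes only, and a change given without them may be shared by the mutants or differ between them.

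NFAT proteins are transcription factors that wait in the cytoplasm with phosphate on the serines of their regulatory domain. When Ca2+ rises in a cell, the phosphatase calcineurin removes the phosphate, and NFAT enters the nucleus and binds DNA at sites with the core letters GGAAA. In islets, glucose and other secretagogues raise Ca2+ in beta cells, and calcineurin and NFAT are known there for their part in beta cell growth and in the expression of insulin and other genes of the mature cell. In the ca-Nfatc1 mutant, serines of this domain are replaced by alanine, so that nuclear entry no longer needs calcineurin. The virus drove the mutant from the CMV promoter, which is active in any cell type of the islet. Since values are given per gene, RNA from the virus was not separated from that of the endogenous Nfatc1. In RNA of whole islets, fewer cells of a type and less RNA per cell cannot be told apart.

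Nfatc1 itself matched the labels in every library. It was at 166, 237, 265, 275 and 291 normalized expected counts in the GFP islets of days 1 to 5 and at 29292, 24705, 29245, 28301 and 26554 in the ca-Nfatc1 islets of the same days. The lowest ca-Nfatc1 library thus held many times the Nfatc1 of the highest GFP library. Values of genes below are normalized expected counts in this order of days. A difference is ca-Nfatc1 minus GFP on the log2 scale after adding 1 to each value, ± its standard error (SE), with 5 libraries a group. The added 1 understates the change of genes with low values. Genes are said to have risen or fallen only where the adjusted p of limma was under 0.05.

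The libraries held about 13360000 to 18870000 expected counts with GFP and 15320000 to 21130000 with ca-Nfatc1. These depths were read from the commonest low value of each library, taken as 1 count. Correlations of log2 values were 0.9841 to 0.9903 among GFP libraries, 0.9861 to 0.9927 among ca-Nfatc1 libraries and 0.9124 to 0.9239 between the groups. The tissue label fitted its markers: Ins2, the main mouse insulin gene, was at 955582, 962582, 855078, 705555 and 608181 with GFP and 838136, 760050.3, 512423, 624651 and 530536 with ca-Nfatc1.

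Most of the islet transcriptome differed between the groups. Among 14151 genes, 4015 rose (28.4%) and 4022 fell (28.4%), together 56.8%. The rises were larger than the falls: 1554 genes (11.0%) rose at least 2-fold and 571 (4.04%) fell at least 2-fold, against 1248 and 976 after quantile normalization. At 8-fold the counts were 389 and 11, and at 100-fold 27 and 0. These counts include genes near 0 with GFP that the filter admitted only through the mutant libraries. Where a mean of at least 100 over the 10 libraries was required, 831 rose and 302 fell at least 2-fold. Many of the other changes were small, since 44.4% of the genes that passed differed by under 0.5 on the log2 scale. The median over all genes tested was -0.0248. In 7758 of the 8037 genes that passed, the direction was the same on all 5 days. All 5 ca-Nfatc1 libraries lay above all 5 GFP libraries in 3176 genes (22.4%) and below them in 2823 (19.9%).

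The balance of higher and lower depended on expression level and on scaling. Among 3310 genes with a mean under 100 over the 10 libraries, 1052 rose and 614 fell. Where the mean was 1000 or more, in 4292 genes, 1104 rose and 1561 fell, but 2-fold changes still leaned to rises, with 269 against 85. Higher genes made 50% of the calls as deposited, 57.9% after scaling to equal totals and 38.3% after quantile normalization, which moved the median of all genes to -0.122. Small differences, such as those of the ribosomal protein genes below, are therefore given with these scalings. Of the 14151 genes, 3266 rose and 5272 fell after quantile normalization, and 4498 rose and 3273 fell after scaling to equal totals. With the day as a block, 4443 rose and 4723 fell, or 4643 and 5023 over the 10 libraries alone. List counts under these settings are to be read beside these numbers.

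**Figure D1:**
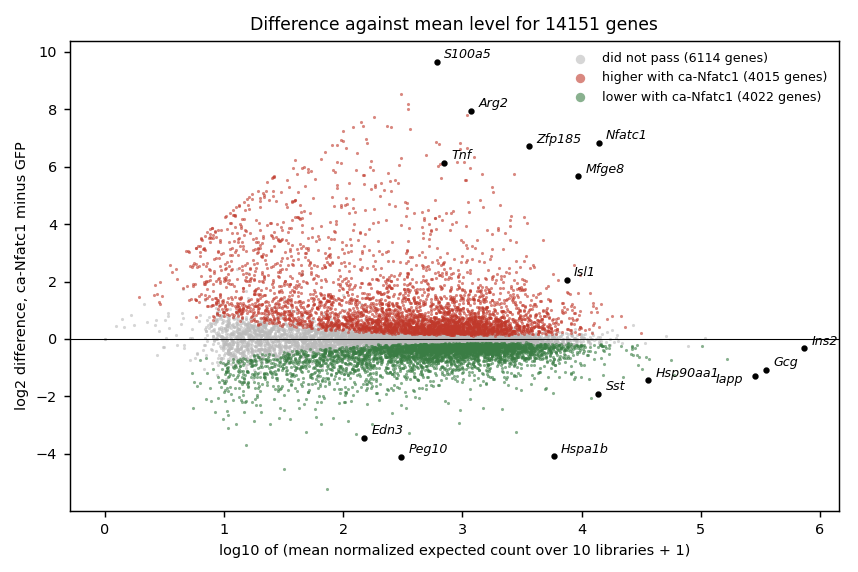
Log2 difference (ca-Nfatc1 minus GFP, y axis) against the log10 of the mean normalized expected count plus 1 over the 10 libraries (x axis) for 14151 genes, with the 4015 that were higher in red, the 4022 that were lower in green and the rest in grey. Rises extend much further from 0 than falls: S100a5 stands at 9.64 at the top. Peg10 and Hspa1b, the largest falls with a mean of at least 100, lie near -4.1. Ugt2b35, with a lower mean, lies at -5.23.

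The largest rises were of genes that were almost silent in the GFP islets. S100a5, an EF-hand Ca2+-binding protein of the S100 family, was at 0, 0, 0, 1.11 and 2.76 with GFP and at 1272, 1182, 987, 1289 and 1347 with ca-Nfatc1. The 5 GFP libraries together held 4 expected counts of it, and no ca-Nfatc1 library was near that level. Its difference was 9.64 ± 0.29 (adjusted p = 1.08e-14). Slc16a14, a member of the monocarboxylate transporter family, was at 0.96, 0, 0, 2.22 and 0.921 and then at 762, 564, 579, 535 and 615, a difference of 8.53 ± 0.3. Gbx1, a homeobox transcription factor of the developing nervous system, was at 3.84, 0, 2.24, 2.22 and 1.84 and at 802, 712, 657, 597 and 691, a difference of 8.0 ± 0.32. For both genes the GFP values were a few counts or none, and the groups were far apart.

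Arg2, the mitochondrial arginase that splits arginine into ornithine and urea, had more reads in the GFP islets and rose nearly as far. It was at 9.64, 9.46, 4.49, 11.1 and 10.1 with GFP and 2834, 2371, 2118, 2157 and 2361 with ca-Nfatc1, a difference of 7.94 ± 0.17 (adjusted p = 1.11e-16). The others of the 12 largest rises were 5430421N21Rik (8.19), 1700016C15Rik (7.79), the lipid-binding Sec14l3 (7.73), Dkkl1 of the Dickkopf-like group (7.55), Vwce (7.43), the olfactory receptor Olfr1349 (7.4), the platelet and endothelial protein Mmrn1 (7.38) and the organic cation transporter Slc22a2 (7.38). Olfactory receptor genes resemble each other closely, so that reads may be shared among them. In each of the 12 genes every ca-Nfatc1 library was above every GFP library.

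Promoters of an almost silent gene and of a classical NFAT target that rose are shown here because NFAT binds DNA at GGAAA. They are RefSeq sequences of build GRCm38.p6, from 250 bases before the start of the gene up to it, in the direction of the gene. S100a5 lies on the plus strand (chr3:90608272-90608521). Tnf, which encodes the cytokine TNF and is described with the cytokines, lies on the minus strand (chr17:35202008-35202257). Capitals mark GGAAA, or TTTCC where it is on the other strand.
S100a5: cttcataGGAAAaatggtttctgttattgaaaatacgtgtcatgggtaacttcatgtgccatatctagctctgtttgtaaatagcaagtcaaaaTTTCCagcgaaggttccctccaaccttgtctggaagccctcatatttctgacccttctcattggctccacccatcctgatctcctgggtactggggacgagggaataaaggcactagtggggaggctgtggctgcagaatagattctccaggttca
Tnf: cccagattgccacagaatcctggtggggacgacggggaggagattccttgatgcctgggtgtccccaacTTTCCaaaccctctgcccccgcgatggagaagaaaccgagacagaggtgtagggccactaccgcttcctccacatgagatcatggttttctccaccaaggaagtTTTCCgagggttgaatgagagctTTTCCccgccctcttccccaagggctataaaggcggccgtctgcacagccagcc

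The S100a5 window held 2 such matches and the Tnf window 3. The same letters on either strand were in 67.0% of the 276 promoters matched among the genes at least 8-fold higher, in 57.9% of the 1148 at least 2-fold higher, in 47.9% of 407 at least 2-fold lower, in 55.4% of the 4604 that did not pass and in 54.2% of all 10642 matched. Median G and C content was 54.8%, 58.0%, 57.2%, 59.2% and 59.6% in the same order. Within promoters below the median in G and C, the shares were 75.4%, 68.7%, 54.3%, 65.8% and 65.4%, and within the others 49.4%, 44.3%, 39.5%, 44.4% and 43.3%. A match is a description of these letters, and no binding was measured.

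**Figure D2:**
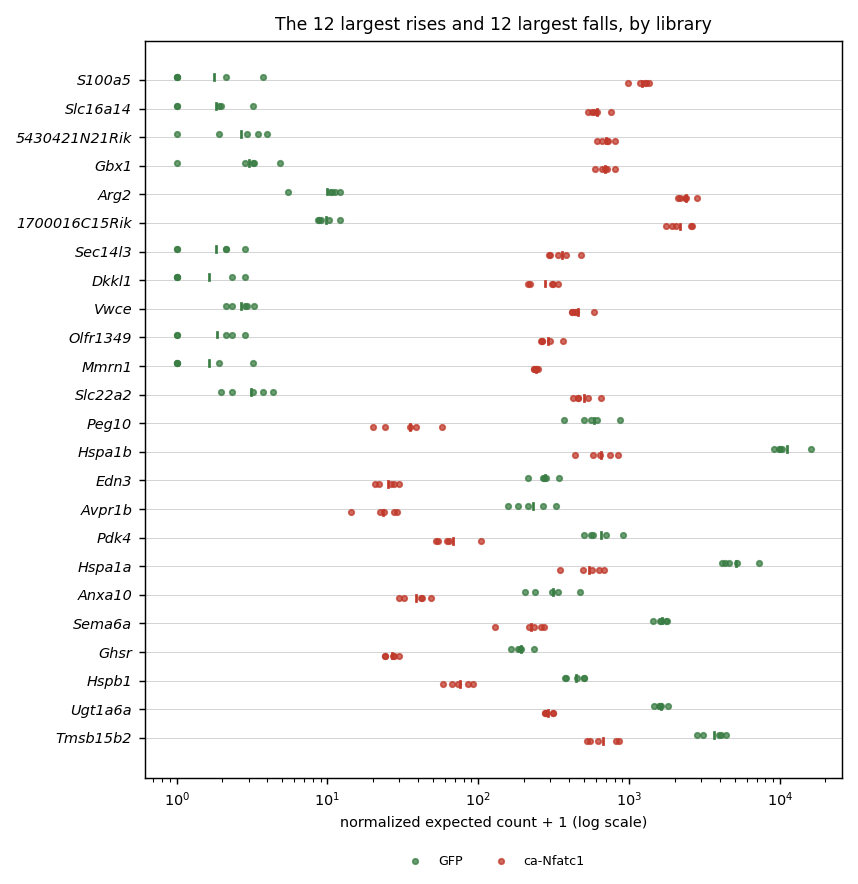
Normalized expected count plus 1 (x axis, log scale) in each of 5 GFP (green) and 5 ca-Nfatc1 (red) libraries for the 12 genes with the largest rises and the 12 with the largest falls, taken from those that passed, reached a mean of 100 and kept 1 direction on 5 days. Vertical bars are group means. No gene shown has overlapping groups, and the 12 rises start from GFP values near 0 while the falls leave counts well above 0.

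A further set of genes had at most 1 count in every GFP library. The filter, taken over all 15 libraries, admits a gene this low with GFP only where it is high with a mutant, so the number of such genes that rose is not given as a result. Ggt6, of the gamma-glutamyltransferase family, had none with GFP and was at 63.8, 50.9, 75.7, 97.9 and 96.5. Against a floor of 3 expected counts over the GFP group, its mean was at least 118-fold higher. On the same floor, Zfp663 was at least 78.0-fold, the pregnancy-specific glycoprotein gene Psg20 at least 76.6-fold and the butyrophilin-like Btnl2 at least 76.0-fold higher. Slc26a10, of the anion exchanger family, had 1 count with GFP and was at 79.1, 36.5, 80.4, 59.5 and 116. None of the 5 had a ca-Nfatc1 library near the GFP level. Pregnancy-specific glycoprotein genes form a family of near copies, so the member is uncertain.

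Several genes whose mean was 1000 or more rose from low to high levels. Mfge8, a secreted protein that binds phosphatidylserine on dying cells and integrins on phagocytes, was at 300.4, 309, 389, 416 and 399 with GFP and 20707, 17688, 18911, 16518 and 18079 with ca-Nfatc1, a difference of 5.67 ± 0.11 (adjusted p = 1.72e-17). Its lowest ca-Nfatc1 value was far above its highest GFP value. Zfp185, an actin-associated LIM domain protein, rose by 6.71 ± 0.081, with means of 67.7 ± 7.98 and 7144 ± 407 (SD, n = 5). Jph4, a junctophilin that holds the endoplasmic reticulum close to the plasma membrane, rose by 5.75 ± 0.11 from 99.2 ± 19.4 to 5341 ± 447. Rises of this size were also seen for Atcay, a neuronal protein (6.66), Kirrel2, an adhesion protein of beta cells (6.32), the galactose mutarotase Galm (6.16), the Na+/H+ exchanger Slc9a5 (5.53) and AA986860 (5.97).

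The largest gains in normalized counts came partly from genes of the secretory route. Gains in counts grow with transcript length and abundance, so they say how much of the sequenced RNA moved, not which gene changed most. Tmed4, a cargo receptor between endoplasmic reticulum and Golgi, went from 3401 ± 250.0 to 16112 ± 1941 (SD, n = 5), a difference of 2.24 ± 0.087. Stt3a, the catalytic subunit that attaches N-glycans, rose by 1.21 ± 0.073 and Scg5, the chaperone of the prohormone convertase Pcsk2, by 0.79 ± 0.1. Serping1, the inhibitor of complement C1, rose by 2.59 ± 0.2, the autophagy receptor Nbr1 by 1.26 ± 0.072, the glycolytic enzyme Eno1 by 1.6 ± 0.081 and the actin-severing protein Dstn by 1.15 ± 0.087. For each of these 7 genes the groups did not overlap.

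The largest falls, where the mean was 100 or more, were those of Peg10 and Hspa1b. Peg10, which descends from a retrotransposon and is imprinted, was at 370.4, 499.9, 869, 556 and 607 with GFP and 22.9, 34.3, 56.5, 19.2 and 37.3 with ca-Nfatc1, a difference of -4.1 ± 0.28 (adjusted p = 7.58e-10). The groups were far apart. Edn3, which encodes the peptide endothelin 3, was at 268, 278, 343, 213 and 269.9 and at 19.6, 21, 28.8, 25.2 and 26.5, a difference of -3.45 ± 0.28. Pdk4, the kinase that switches off pyruvate dehydrogenase, fell by 3.28 from 649 ± 163 to 66.5 ± 21.4 (SD, n = 5). Falls of more than 2 were also measured for the annexin Anxa10 (-2.97), the semaphorin Sema6a (-2.93), the glucuronosyltransferase Ugt1a6a (-2.47), Tmsb15b2 of the thymosin family (-2.45), Pappa2, a protease of IGF-binding proteins (-2.42), and Etv1, an ETS transcription factor (-2.08). Ugt1a genes share their last exons and Tmsb15b2 has a near copy, so their reads may be divided among relatives. Among more abundant genes, Ugt2b34 fell by 1.87 and the glutathione peroxidase Gpx2 by 1.74.

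Heat shock chaperones fell as a group. These proteins fold other proteins and are induced in concert by the factor HSF1 when proteins are damaged. Of 27 genes, 22 fell and 2 rose (median -0.91), beside 28.4% of all genes in each direction. In 20 every ca-Nfatc1 library was below every GFP library, as in 19.9% of all genes. Hspa1b, the inducible Hsp70, was at 9114, 9964, 9917, 15974 and 10256 with GFP and 749, 578, 436, 636 and 847 with ca-Nfatc1, a difference of -4.09 ± 0.21. Every ca-Nfatc1 value was far below every GFP value, and so was every ca-Nfatc2 value. Its near copy Hspa1a fell by 3.24, and reads of the pair cannot be told apart with certainty. Among cofactors and other classes, the small heat shock protein Hspb1 fell by 2.56, the Hsp40 gene Dnajb1 fell by 1.61 and the Hsp110 gene Hsph1 fell by 1.39. The abundant cytosolic chaperones were lower too, with 52770.5 ± 6230.1 against 19342 ± 1645 for Hsp90aa1 (-1.44) and 84729 ± 11698 against 35523 ± 3212 for Hspa8 (-1.25; SD, n = 5). Hsf1 itself was at 567 ± 54.6 and 531 ± 55 and did not pass (difference -0.094 ± 0.08, adjusted p = 0.33). The small heat shock protein gene Cryab (0.22, adjusted p = 0.386) and the Hsp40 gene Dnaja4 (0.1, adjusted p = 0.362) did not pass either, and Hspa2 (0.48) and Hspa4l (0.24) rose.

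Hspe1 and Hspd1 encode the mitochondrial chaperonins and are transcribed from 1 shared region in opposite directions. Hspe1 was at 5583, 5004, 3837, 5013 and 4686 with GFP and 1464, 1489.9, 1116, 1672 and 1346 with ca-Nfatc1, a difference of -1.77 ± 0.1. Hspd1 fell by 1.38, and for both genes the groups were apart. The RefSeq promoter of Hspe1 (plus strand, chr1:55087898-55088147, GRCm38.p6) is shown because HSF1 binds inverted repeats of GAA and TTC. Capitals mark GAANNTTC or TTCNNGAA, where N is any base.
Hspe1: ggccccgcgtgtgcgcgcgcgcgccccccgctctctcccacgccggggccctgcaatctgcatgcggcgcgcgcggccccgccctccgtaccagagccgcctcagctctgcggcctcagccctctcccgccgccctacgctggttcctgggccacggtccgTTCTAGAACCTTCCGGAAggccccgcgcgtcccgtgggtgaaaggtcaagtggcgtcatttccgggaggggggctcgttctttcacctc

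Its 3 matches overlap each other. One or the other of these motifs was in 7 of 22 promoters matched among the heat shock genes (31.8%) and in 10.1% of all 10642. The share was 11.1% among genes at least 2-fold lower, 10.2% at least 2-fold higher, 11.6% at least 8-fold higher and 10.3% among those that did not pass. The listed genes were chosen as heat shock genes, so their share is a description, and no binding was measured.

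Other stress genes followed with smaller changes. Over all genes tested, 28.4% fell and 28.4% rose. Of 33 genes of the unfolded protein response, which adapts the endoplasmic reticulum to misfolded proteins, 21 fell and 4 rose (median -0.31). Sesn2 fell by 1.21 and Trib3 by 1.13, and Hspa5, the chief chaperone of the endoplasmic reticulum, went from 36568 ± 3297 to 23476 ± 1546 (SD, n = 5; -0.64). The transcription factor gene Ddit3 fell by 0.67. In the other direction, Dnajc3, which inhibits the kinase PERK, rose by 0.83 ± 0.072 and the secreted protein Manf by 0.63 ± 0.082. Of 31 proteasome subunits 24 fell, led by Psmd12 (-0.56) and Psmd6 (-0.49), and 1 rose. Of 20 targets of p53, 11 fell and 1 rose (median -0.42), while Cdkn1a, the best known of them, was at 1443 ± 196 and 1612 ± 214 and did not pass (adjusted p = 0.236), though it did with the block over the 10 libraries (adjusted p = 0.0112).

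Islet hormone transcripts took a smaller share of the RNA with ca-Nfatc1. Ins1, Ins2, Iapp, Gcg, Sst, Ppy and Pyy together made 12.12, 12.06, 12.34, 10.11 and 9.935% of all normalized counts with GFP and 8.406, 7.82, 6.34, 6.984 and 6.299% with ca-Nfatc1. All 5 ca-Nfatc1 libraries were below all GFP libraries. The means were 11.3 ± 1.19% and 7.17 ± 0.926% (SD, n = 5; exact permutation test of 5 against 5 libraries, two-sided, p = 0.00794, the smallest that this design allows). With the libraries paired by day, the difference was negative on 5 of 5 days and the exact sign-flip test gave p = 0.0625, again the smallest it can give.

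The hormone genes did not all move alike. Sst, the hormone of delta cells, was at 14033, 23372, 28093, 22825 and 21071 with GFP and 4441, 5968, 5973, 6988 and 5242 with ca-Nfatc1, a difference of -1.92 ± 0.19 (adjusted p = 1.62e-07). Pyy fell by 2.06, Iapp, the amyloid peptide stored with insulin, by 1.29, and Gcg, the hormone of alpha cells, by 1.08. Ppy, of PP cells, fell by 0.71 and Ins1 by 0.68. Ins2 was lower on 5 of 5 days, with means of 817396 ± 156424 and 653159 ± 142564 (SD, n = 5), but its groups overlapped and it did not pass (difference -0.33 ± 0.22, adjusted p = 0.206). Quantile normalization gives the most abundant genes of every library the same values, and under it the differences were 0.14 for Gcg, -0.14 for Iapp, -0.12 for Ppy and 0 for Ins1, none of which passed.

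**Figure D3:**
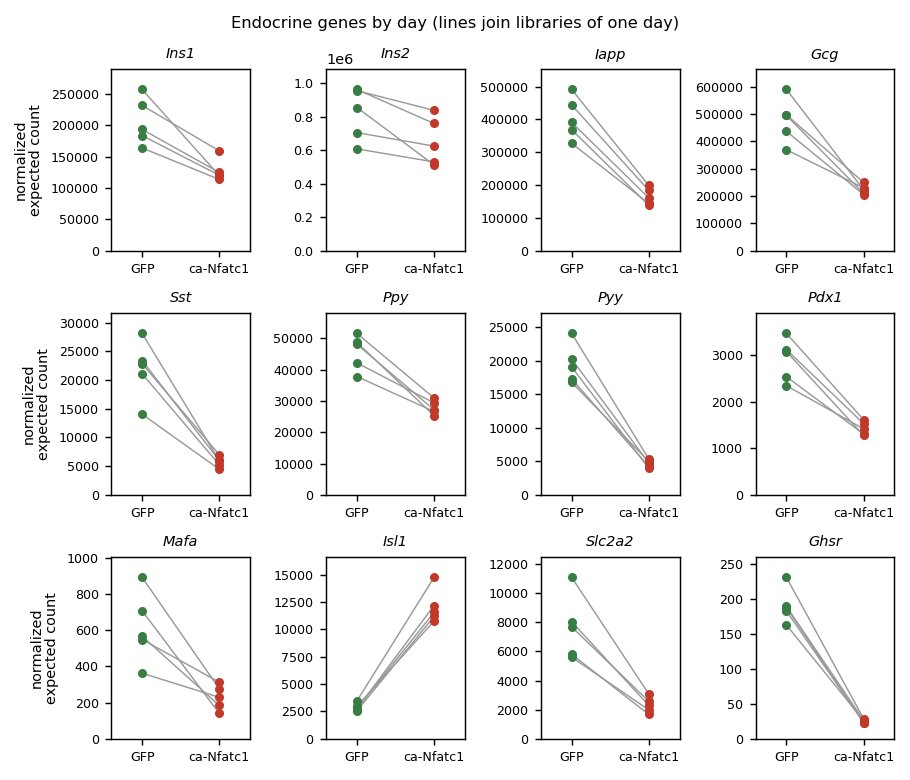
Normalized expected counts (y axes, from 0) of 12 endocrine genes with GFP and with ca-Nfatc1, where each line joins the libraries of 1 day. Every line falls except in the panel of Isl1, where all 5 rise, and the largest fall on the log2 scale is that of Ghsr (-2.85).

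Genes of mature endocrine cells fell more often than they rose, while 28.4% of all genes tested fell and 28.4% rose. Of 10 beta cell markers 8 fell, with a median of -1.27. Slc2a2, the glucose transporter of mouse beta cells, was at 11090.3, 8046, 7690.4, 5804 and 5609 with GFP and 3076, 2289.6, 2573, 1669 and 1985 with ca-Nfatc1, a difference of -1.71 ± 0.3 (adjusted p = 9.32e-05). The groups were apart, and the GFP libraries spread more widely than the others. Ucn3, which marks mature beta cells, fell by 1.76, the granule zinc transporter Slc30a8 by 1.31 and the glucose-6-phosphatase G6pc2 by 1.25. All 4 delta cell markers fell, and Ghsr, the ghrelin receptor, went from 163, 188, 231, 183 and 189.7 to 26.2, 23.2, 28.8, 23.2 and 26.5, a difference of -2.85 ± 0.22. The transcription factor Hhex fell by 2.13 and Rbp4 by 1.47. Of 8 alpha cell markers 5 fell, among them the factor Irx1 (-1.37), and 1 rose: Gc, the vitamin D-binding protein, went from 4072 ± 432 to 11903 ± 579 (SD, n = 5; 1.55).

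Beta cell transcription factors divided into a larger group that fell and 4 that rose. Of 28 tested, 17 fell (28.4% of all genes did), with a median over the list of -0.5. Isl1, a LIM homeobox factor needed for endocrine cells, was at 3456, 2715, 2957, 2549 and 2757 with GFP and 14742, 12175, 10752, 11181 and 11544 with ca-Nfatc1, a difference of 2.06 ± 0.12 (adjusted p = 6.10e-11). Every ca-Nfatc1 library was far above every GFP library. The homeobox factor Prox1 rose by 2.07 ± 0.11, from 1048 ± 153 to 4390.5 ± 511, and Tcf7l2 by 1.37 ± 0.18. In contrast Pdx1, the factor of pancreas and beta cells, was at 2533, 3114, 3462, 3073 and 2341 and 1305, 1528, 1612, 1273 and 1414, a difference of -1.02 ± 0.15, with every ca-Nfatc1 library below every GFP library. Mafa, which activates insulin genes in mature cells, was at 548, 566, 891, 706 and 362 and 313, 184, 276, 140.2 and 229, a difference of -1.42 ± 0.42 (adjusted p = 0.00829). Neurog3, the factor of endocrine progenitors, fell by 2.19, Nkx2-2 by 0.93 and the glucose-responsive factor Mlxipl by 0.9. Nkx6-1 was at 2801 ± 644 and 2265 ± 242 (SD, n = 5) and did not pass (difference -0.28 ± 0.14, adjusted p = 0.0999). It passed with the day as a block (adjusted p = 0.0108), without GFP replicate 1 (adjusted p = 0.0269) and without GFP replicate 5 (adjusted p = 0.0354).

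Genes of glucose sensing, excitation and secretion changed in both directions. Of 27 genes for glucose entry, phosphorylation and ion channels, 14 fell and 5 rose, beside 28.4% of all genes in each direction. With the block over the 10 libraries 8 rose. Kcnj11, the pore of the KATP channel, went from 708 ± 116 to 379 ± 49.6 (SD, n = 5; -0.89), while Abcc8, its sulfonylurea receptor subunit, was at 13988 ± 1307 and 14673 ± 1393 and did not pass (adjusted p = 0.472). The cation channel Trpm5 fell by 1.59. Of the voltage-gated sodium channels, Scn9a fell by 0.92 and Scn3a rose by 1.34 ± 0.12. The ryanodine receptor Ryr2, which releases Ca2+ from stores, rose by 2.47 ± 0.33 from 20.1 ± 8.46 to 109.8 ± 31.2, and the Ca2+ channel subunit Cacnb3 by 0.79 ± 0.1.

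Of 34 exocytosis genes, 15 fell and 7 rose, beside 28.4% of all genes in each direction. The vesicle proteins Syt5 (-1.76), Rab3b (-1.71), Sytl4 (-1.11) and Syt13 (-0.92) fell. Nsf, the ATPase that takes SNARE complexes apart, went from 1700.2, 1662, 1673, 1673 and 1632 to 4940.5, 5047, 5231, 4871 and 4862, a difference of 1.58 ± 0.045 with no overlap. Of 20 genes of prohormone processing and the granule, 8 fell and 3 rose as deposited, beside the same 28.4% of all genes. After quantile normalization 4 fell, and after scaling to equal totals 5 rose. Pcsk2, the convertase that cuts proglucagon and proinsulin, fell by 0.75, a call that quantile normalization ended (-0.1), and Pcsk1 did not pass (0.1, adjusted p = 0.454).

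Receptors of the islet mostly fell. Of 29 tested, 16 fell and 4 rose (median -0.44), beside 28.4% of all genes in each direction. Avpr1b, the vasopressin receptor of islets and pituitary, was at 214, 157, 269, 183 and 328 with GFP and 27.8, 13.3, 26.7, 21.2 and 22.6 with ca-Nfatc1, a difference of -3.3 ± 0.24. The groups did not overlap. The fatty acid receptors Ffar1 and Ffar3 fell by 1.84 and 1.73, the somatostatin receptor Sstr3 by 1.38 and the receptors of the incretins, Gipr and Glp1r, by 1.0 and 0.39. Another somatostatin receptor, Sstr1, rose by 1.72 ± 0.22 from 13.5 ± 4.96 to 44.9 ± 4.51 (SD, n = 5), and the leptin receptor Lepr by 1.2 ± 0.18.

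The calcineurin and NFAT genes showed a rise of the pathway's own inhibitor. Rcan1, which NFAT induces and which binds and inhibits calcineurin, was at 408, 509.8, 523, 515 and 516 with GFP and 4875, 4617, 4733, 5499 and 5922 with ca-Nfatc1, a difference of 3.37 ± 0.21 (adjusted p = 2.00e-10). The calcineurin subunits Ppp3r1 and Ppp3ca rose by 0.88 ± 0.058 and 0.6 ± 0.081. Cabin1, another calcineurin-binding protein, rose by 0.39 ± 0.12. Of the NFAT kinases, Dyrk2 rose by 0.35 ± 0.1 and Dyrk1a fell by 0.22, a call that scaling to equal totals ended (-0.16, adjusted p = 0.0612). Nfatc2 was at 414, 601, 693, 618 and 503 and 384, 352, 546, 425 and 427, with overlapping groups and a difference of -0.4 ± 0.18 that did not pass (adjusted p = 0.0691). It passed with the day as a block (adjusted p = 0.0125), and also when 1 library was left out: GFP replicate 1 (adjusted p = 0.0251), the third of ca-Nfatc1 (0.0343), or the first (0.0369) or the fourth (0.0254) of ca-Nfatc2. In all, 9 of 19 members rose, Nfatc1 among them, and 2 fell, beside 28.4% of all genes in each direction. The falls were 4 with the block and 1 after scaling to equal totals.

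Genes that NFAT is known to induce in immune cells included large rises. Of 30 listed, 16 were tested, 9 rose and 2 fell, beside 28.4% of all genes in each direction. Members near 0 with GFP, such as Pdcd1, passed the filter only through the mutant libraries, so this count carries no weight for the list as a whole. Tnf was at 23, 12.1, 19, 11.5 and 32.2 with GFP and 2038, 1055, 1249, 1118 and 1429.9 with ca-Nfatc1, a difference of 6.12 ± 0.3. Nr4a3, a nuclear orphan receptor induced by Ca2+ signals, was at 6.72, 12.1, 8.94, 13.3 and 12.9 and 375, 311, 464, 409 and 561, a difference of 5.18 ± 0.25. In both, the lowest ca-Nfatc1 value was many times the highest GFP value. Pdcd1, the inhibitory receptor PD-1 of lymphocytes, was at 0 in all GFP libraries and at 24.5, 14.4, 20.3, 16.1 and 17.9 with ca-Nfatc1. Dgka, a diacylglycerol kinase, rose by 3.28 ± 0.092, Tnfsf8 by 3.06 ± 0.2, Egr3 by 2.55 ± 0.47, the cyclooxygenase Ptgs2 by 1.89 ± 0.29 and Il2ra by 1.33 ± 0.21. The chemokine gene Ccl3 was at 35.5 ± 5.32 and 28.7 ± 8.08 and did not pass (adjusted p = 0.467).

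Of 38 cytokine and chemokine genes listed, 28 were tested, 11 rose and 3 fell, beside 28.4% of all genes in each direction. The rises were 7 without ca-Nfatc1 replicate 5, 6 after quantile normalization and 5 where a mean of 100 was required. Ccl7, a chemokine for monocytes, was at 18.2, 8.06, 16.8, 20 and 35 with GFP and 1585, 1242, 1119, 1079 and 1170.0 with ca-Nfatc1, a difference of 6.03 ± 0.27. Tnfsf9, the ligand of 4-1BB, was at 77.7, 80.4, 76, 111 and 90.3 and 4442, 2889, 3032, 3289 and 3704, a difference of 5.3 ± 0.12. Both genes were apart between the groups on every day. Ccl2 rose by 3.77 ± 0.44, the epithelial cytokine Tslp by 3.34 ± 0.52, Cxcl1 by 3.02 ± 0.68 and Il1a by 1.32 ± 0.29, while Il1b did not pass (0.42, adjusted p = 0.474). Of 12 leukocyte markers 9 were tested, 1 rose (Cd14, 0.97) and 1 fell (Cd79a, -0.79). Their summed level was 1006 to 1551 with GFP and 1474 to 2072 with ca-Nfatc1, so the ranges overlapped. The number that rose was 2 without ca-Nfatc1 replicate 1 or ca-Nfatc1 replicate 4, 3 without ca-Nfatc2 replicate 4, 3 in the fit of the 10 libraries and 4 with the block over the 10 libraries. After quantile normalization none rose, 2 fell, and Cd14 was at 0.59 (adjusted p = 0.104). The part of leukocytes in these rises was not tested. Of 29 genes of the interferon response, 8 rose and 6 fell, beside 28.4% of all genes in each direction (13 and 11 with the block over the 10 libraries).

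Cell cycle genes were examined because the study asked whether NFAT drives beta cells to divide. They did not move together with ca-Nfatc1. Over all genes tested, 28.4% rose and 28.4% fell. Of 43 S phase genes 9 rose and 9 fell (median -0.056). Of 51 genes of G2 and M phase 7 rose and 11 fell (median -0.18). After quantile normalization 17 and 27 fell, where 5272 of all 14151 genes did. With the block 17 genes of G2 and M phase fell, where 4723 of all 14151 genes did. Cdk1, the kinase of mitosis, was at 19.2, 24.2, 31.3, 16.6 and 32.2 with GFP and 29.5, 17.7, 23.5, 13.1 and 16.3 with ca-Nfatc1, with overlapping groups (difference -0.3 ± 0.24, adjusted p = 0.306). The replication licensing gene Mcm2 was at 345 ± 33 and 315 ± 25.4 (SD, n = 5) and did not pass (adjusted p = 0.222). With ca-Nfatc2 minus ca-Nfatc1, the difference was 4.1 for Cdk1 (adjusted p = 7.49e-10) and 1.6 for Mcm2 (adjusted p = 3.25e-10). Quantile normalization gave a fall that passed for Cdk1 (-0.7) and Mcm2 (-0.23).

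A few mitotic genes stood out from their lists. Ndc80, of the kinetochore complex that holds microtubules, was at 42.2, 22.8, 34.7, 35.5 and 40.4 with GFP and 831, 826, 646, 709 and 706 with ca-Nfatc1, a difference of 4.39 ± 0.16 (adjusted p = 1.61e-13). Its partner in the complex, Nuf2, rose by only 1.03 ± 0.22, from 26.2 ± 5.49 to 53.5 ± 0.959 (SD, n = 5). The checkpoint kinase Bub1 rose by 2.37 ± 0.19, Cdc20, which activates the anaphase-promoting complex, by 1.8 ± 0.32, and the condensin subunit Smc4 by 0.95 ± 0.062. In S phase, Gmnn, which encodes geminin, the inhibitor of repeated licensing, rose by 1.59 ± 0.13, and the histone chaperone Chaf1b by 1.01 ± 0.14.

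Inhibitors and G1 regulators changed as follows. Cdkn1c, the CDK inhibitor p57, was at 22.1, 24.2, 17.9, 13.3 and 17.5 with GFP and 227, 177, 185, 162 and 192 with ca-Nfatc1, a difference of 3.26 ± 0.18. The groups were far apart. With ca-Nfatc2 its difference from ca-Nfatc1 was -2.41 (adjusted p = 9.97e-09). Plk5, a polo-like kinase that restrains the cycle, rose by 1.22 ± 0.29, and Wee1, the kinase that holds back Cdk1, fell by 1.25. Ccnd1, a D-type cyclin of G1, was at 2245, 2139.6, 2475, 2150.4 and 1935 and 1279.8, 1191, 1268, 1082 and 1171, a difference of -0.87 ± 0.074 without overlap, and Ccnd2, the main cyclin D of mouse islets, fell by 0.39. Myc rose by 0.68 ± 0.12, against 3.84 with ca-Nfatc2 and the same GFP libraries. Of 19 cyclins, kinases and E2F genes of G1, 11 fell and 3 rose, beside 28.4% of all genes in each direction. The study chose its own list of cell cycle genes on these samples, so it is no independent evidence: 2 of 27 rose and 8 fell (16 fell after quantile normalization).

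Immediate early genes, which answer growth factors and depolarization within minutes, fell more often than they rose. Of 28 tested 13 fell and 4 rose, beside 28.4% of all genes in each direction. The rises were 7 without ca-Nfatc2 replicate 4 and in the fit of the 10 libraries, and 2 after quantile normalization. Atf3 was at 414, 425, 412, 615 and 659.5 with GFP and 97.4, 101, 76.8, 95.8 and 137 with ca-Nfatc1, a difference of -2.3 ± 0.23. The phosphatase Dusp4 fell by 1.93, Klf4 by 1.78, and Fos and Jun, the parts of AP-1, by 1.15 and 1.15. Nr4a1, a relative of Nr4a3, was at 118 ± 6.77 and 111 ± 10.4 (SD, n = 5) and did not pass (adjusted p = 0.577).

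Growth factors moved in both directions. Of 43 tested 9 rose and 11 fell, beside 28.4% of all genes in each direction (18 fell after quantile normalization). Igf2, the fetal insulin-like growth factor, was at 38.4, 56.4, 58.1, 67.7 and 62.6 with GFP and 247, 329.9, 332, 374 and 265 with ca-Nfatc1, a difference of 2.44 ± 0.15 without overlap. Ligands of the EGF receptor moved apart: Ereg rose by 3.18 ± 0.43 and Egf by 1.32 ± 0.088, while Areg fell by 1.08. Tgfb3 rose by 1.92 ± 0.15 and Fgf1 by 1.5 ± 0.15.

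Metabolic genes showed a rise in sterol synthesis and an exchange among enolases. Of 24 genes of cholesterol synthesis and its control, 13 rose and 4 fell (median 0.51), beside 28.4% of all genes in each direction. Only 2 fell without GFP replicate 5 or after scaling to equal totals. Idi1, which makes an isoprenoid precursor of sterols, was at 500.1, 500.0, 547, 513 and 547 with GFP and 3109, 2889, 2576, 2575 and 2664 with ca-Nfatc1, a difference of 2.4 ± 0.11 without overlap. Stard4 and Dhcr7 rose by 1.52 ± 0.07 and 1.5 ± 0.11. Hmgcs1 rose by 0.77 ± 0.052, but the squalene epoxidase Sqle fell by 0.68. Of the enolases of glycolysis, Eno3, the muscle form, went from 422, 352, 415, 351 and 322 to 1878, 1338, 1440.1, 1339 and 1589, a difference of 2.02 ± 0.11. Eno1, the common form, rose by 1.6 ± 0.081 and Eno2, the form of neurons and endocrine cells, fell by 0.65. Over 26 genes of glycolysis 8 rose and 9 fell, beside 28.4% of all genes in each direction (5 rose after quantile normalization). Around arginine, Arg2 rose while Slc7a2, a transporter of cationic amino acids, fell by 1.32, and Gatm, which uses arginine for creatine, rose by 0.89 ± 0.16.

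Median differences of the housekeeping groups were small, and the number of genes that passed depended on the fit. Of 48 cytosolic ribosomal protein genes, 17 fell and 1 rose (median -0.18), beside 28.4% of all genes in each direction. The falls were 7 without GFP replicate 1, 6 without GFP replicate 2, 8 without GFP replicate 4, 6 without ca-Nfatc1 replicate 3, 6 without ca-Nfatc1 replicate 5, 8 after scaling to equal totals, 22 after quantile normalization and 35 with the block over the 10 libraries. Of 40 genes of the respiratory chain and ATP synthase, 14 fell and 4 rose, beside the same 28.4% of all genes. With the block over the 10 libraries 24 fell. In that fit, which gave 35 falls among the ribosomal protein genes, 5023 of all 14151 genes fell.

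Epithelial genes were rearranged. Of 23 keratins, mucins, claudins and other junction genes, 14 fell and 6 rose (median -0.68), beside 28.4% of all genes in each direction. Krt19, the keratin of duct cells, was at 36.5, 13.4, 30.2, 31.1 and 21.2 with GFP and 1632, 1092, 1077, 1193 and 1472 with ca-Nfatc1, a difference of 5.61 ± 0.31 (adjusted p = 4.26e-11). The surface mucin Muc1 rose by 5.75 ± 0.36. In contrast Krt7, another duct keratin, went from 5983 ± 412 to 2959 ± 263 (SD, n = 5; -1.02), and the tight junction proteins Cldn1, Cldn6 and Cldn4 fell by 2.74, 1.57 and 1.38. Of 8 duct markers 7 were tested, 4 rose and 1 fell, and their summed level was 8430.0 to 9531 with GFP and 8055 to 11340.0 with ca-Nfatc1, so the groups overlapped. Of 50 genes of matrix and integrins 13 rose and 7 fell, beside 28.4% of all genes in each direction (21 and 15 with the block over the 10 libraries, and 11 fell after quantile normalization). Acan, the proteoglycan of cartilage, was at 0.96, 0, 3.35, 2.22 and 1.84 with GFP and 169, 138, 185, 140.2 and 243 with ca-Nfatc1, a difference of 6.17 ± 0.34. Fmod, Col8a1, the integrin Itga5 and the laminin Lama5 rose by 3.57 ± 0.35, 3.25 ± 0.15, 2.12 ± 0.17 and 1.68 ± 0.2, and the hyaluronan link protein Hapln1 fell by 2.06.

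Few endothelial and mesenchymal markers passed, while 28.4% of all genes tested rose and 28.4% fell. Of 10 endothelial markers 1 rose (Esam, 0.39) and 1 fell (Emcn, -0.35). The fall of Emcn was lost without any 1 of GFP replicate 1, GFP replicate 4, GFP replicate 5, ca-Nfatc1 replicate 2 or ca-Nfatc1 replicate 3, and 4 markers fell with the block. Of 10 mesenchymal markers 1 passed, Pdgfrb, which fell (-0.39). With the block 3 fell and 2 rose, and Pdgfrb did not pass without any 1 of GFP replicate 3, GFP replicate 5 or ca-Nfatc1 replicate 1, 2 or 4. The fall counts were 0 for both lists after scaling to equal totals. Of 14 acinar markers 8 were tested, 4 rose and 3 fell. Ctrb1, a chymotrypsinogen, was at 1.92, 0, 1.12, 30 and 8.29 with GFP and 0, 236, 53.3, 110.0 and 59.1 with ca-Nfatc1, so that 1 ca-Nfatc1 library was at 0 and the groups overlapped (difference 3.11 ± 1.25, adjusted p = 0.0413). Prss2, Cpa1 and Cela2a rose by 3.12 ± 1.2, 2.66 ± 0.95 and 2.46 ± 0.97, with overlap in each. None of the 4 passed without GFP replicate 1, GFP replicate 2, ca-Nfatc1 replicate 2, ca-Nfatc1 replicate 4 or ca-Nfatc1 replicate 5, only Cpa1 passed without GFP replicate 3, and Ctrb1 did not pass without ca-Nfatc1 replicate 3 (adjusted p = 0.0759). Without ca-Nfatc1 replicate 2 the differences of Ctrb1, Prss2, Cpa1 and Cela2a were 2.46, 2.42, 2.24 and 1.86. Without ca-Nfatc1 replicate 1 they were 4.43, 4.32, 3.71 and 3.29, and without GFP replicate 4 3.81, 3.83, 3.14 and 3.09. None passed after quantile normalization. Trypsin and chymotrypsin genes have close relatives, so the member is uncertain. Cela1 fell from 133, 153, 181, 169.8 and 184 to 18, 131, 39.5, 137 and 24.1. Of the 5 ca-Nfatc1 libraries, 3 were far below the GFP group and 2 close to its lowest value. The summed level of the 8 acinar markers was 583 to 779 with GFP and 348 to 1309 with ca-Nfatc1, and its part in other results was not tested.

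Genes near type 2 diabetes association signals (T2D GWAS genes), as listed by the study, were compared because the study asked whether NFAT regulates them. Of 141 listed, 121 were tested, 30 rose and 42 fell, beside 56.8% of all genes that passed. Lgr5, a receptor for R-spondins in stem cells, was at 10, 5.05, 13.2, 21.5 and 16.7 with GFP and 656, 505, 592, 463 and 614 with ca-Nfatc1, a difference of 5.43 ± 0.24 (adjusted p = 2.14e-12). It was the largest rise of the list, and the lowest ca-Nfatc1 value was far above the highest GFP value. The phosphatase Dusp9 rose by 3.46 ± 0.49, the RNA-binding protein Rbm38 by 3.07 ± 0.14, Spry2, which dampens growth factor signals, by 2.09 ± 0.12, and the ubiquitin-conjugating enzyme Ube2e2 by 1.26 ± 0.092. Tcf7l2 and Prox1, above, belong here too. Among the falls, the tetraspanin Tspan8 went from 1469 ± 192 to 561 ± 37.2 (SD, n = 5; -1.38) and the nuclear receptor Pparg from 563, 537, 505, 580.3 and 568 to 199.7, 228, 227, 238 and 234, a difference of -1.29 ± 0.1 without overlap. Wfs1, mutated in Wolfram syndrome, rose by 0.61 ± 0.083. Cdkal1 did not pass (-0.12, adjusted p = 0.18; -0.22, adjusted p = 0.0232, after quantile normalization). Fto did not pass either (0.27, adjusted p = 0.0612), but it did with the day as a block (adjusted p = 4.54e-05), after scaling to equal totals (0.0358) and without GFP replicate 3 (0.0373), GFP replicate 4 (0.0474), ca-Nfatc1 replicate 1 (0.0128) or ca-Nfatc2 replicate 1 (0.0343).

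**Figure D4:**
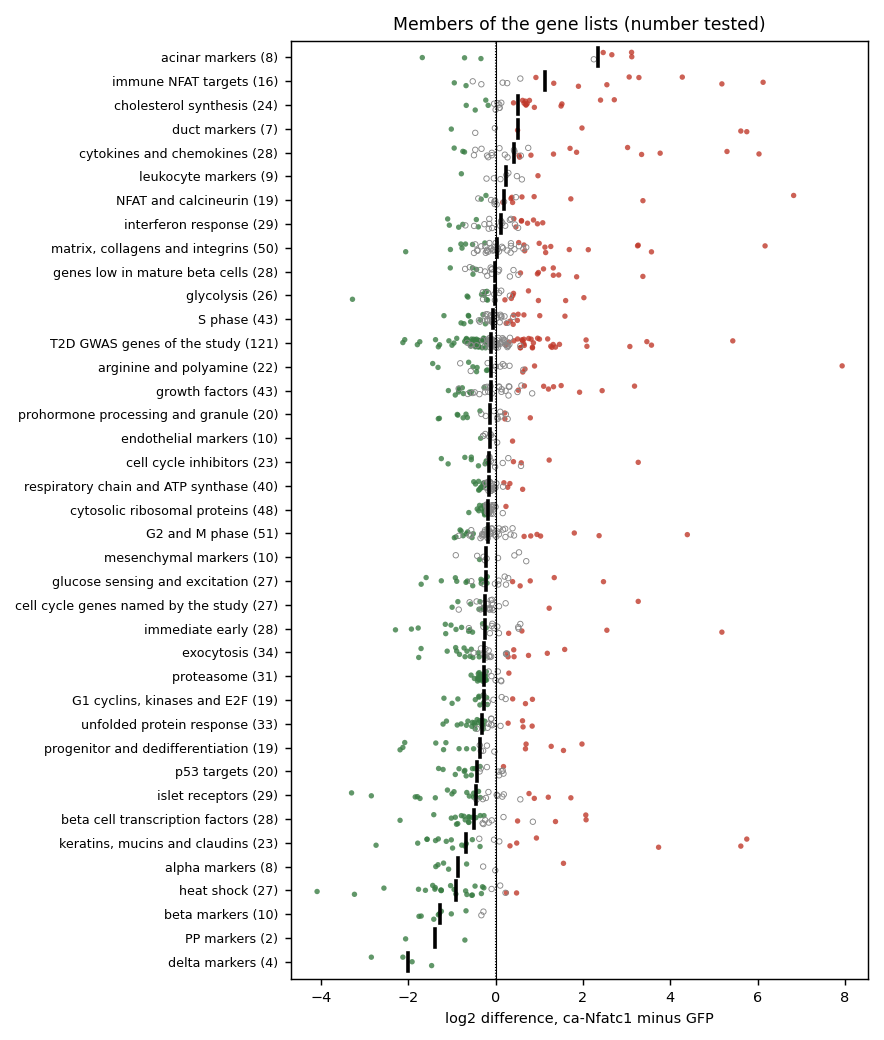
Log2 difference (ca-Nfatc1 minus GFP, x axis) of each member of 39 gene lists (y axis, number of members tested in brackets), with filled red or green points for members that rose or fell past the threshold and open grey points for the rest. Black bars are list medians and the dotted line is the median over all genes (-0.0248). The medians of the delta, PP and beta markers lie furthest to the left.

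Some of these changes differed between the mutants. In the comparison of ca-Nfatc2 with ca-Nfatc1, 6974 genes differed (49.3%). The GFP levels do not enter its differences, but the GFP libraries enter its estimate of spread. Both mutants share the GFP libraries in the other comparisons, so their values are set side by side only. Where the mean was 100 or more and a gene passed with ca-Nfatc1 in the same direction on 5 days, 1543 genes also differed between the mutants and were within 0.5 (log2) of GFP with ca-Nfatc2, 755 of them higher and 788 lower with ca-Nfatc1. Apart from Nfatc1, the rises of this kind were led by Ctsh, which encodes the lysosomal protease cathepsin H. It was at 231, 211, 198, 199 and 249 with GFP and 1699.9, 1299, 1299, 1519 and 1663 with ca-Nfatc1, a difference of 2.77 ± 0.14, against 0.21 with ca-Nfatc2 (difference between the mutants -2.57, adjusted p = 2.48e-10).

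Dll4, a Notch ligand of endothelium and other cells, was at 254, 197, 253, 259 and 276 with GFP and 1483, 1019, 1237, 1081 and 1162 with ca-Nfatc1 (2.26, against 0.029 with ca-Nfatc2). Isl1, at 2.06, stood at 0.5 with ca-Nfatc2. The Ca2+ channel subunit Cacng4 (2.46 against 0.28), the matrix protease Mmp14 (1.9 against 0.39), Gm12942 (1.85 against 0.004) and the nucleotide kinase Cmpk2 (1.75 against 0.28) completed the 8. Of the falls, Pappa2 was at 2049, 2377, 3390.1, 2053 and 2761 with GFP and 364, 398, 607, 509 and 478 with ca-Nfatc1 (-2.42, against 0.16 with ca-Nfatc2), and all ca-Nfatc1 values were below all GFP values. Impdh2, the rate-limiting enzyme of guanine nucleotide synthesis, fell by 1.12 (against 0.074), the melanosome transport protein Mlph by 1.19 (against 0.36) and the mitochondrial porphyrin transporter Abcb6 by 1.01 (against -0.19). Hspd1 (-1.38 against -0.36), Hsp90ab1 (-1.03 against -0.4), Nabp1 (-1.27 against -0.36) and Lonrf3 (-1.24 against -0.4) made up the rest. Still, all ca-Nfatc2 values of Hsp90ab1 were below all GFP values. Lower chaperone values were not particular to ca-Nfatc1. For Hspa1b, Hspa1a and Hspb1 every ca-Nfatc2 library was also below every GFP library. Dnajb1 was at -1.61 with ca-Nfatc1 and -1.08 with ca-Nfatc2. Of the 27 heat shock genes, 21 differed between the mutants. In 472 genes both mutants passed against GFP in opposite directions and differed from each other, 151 of them higher and 321 lower with ca-Nfatc1.

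**Figure D5:**
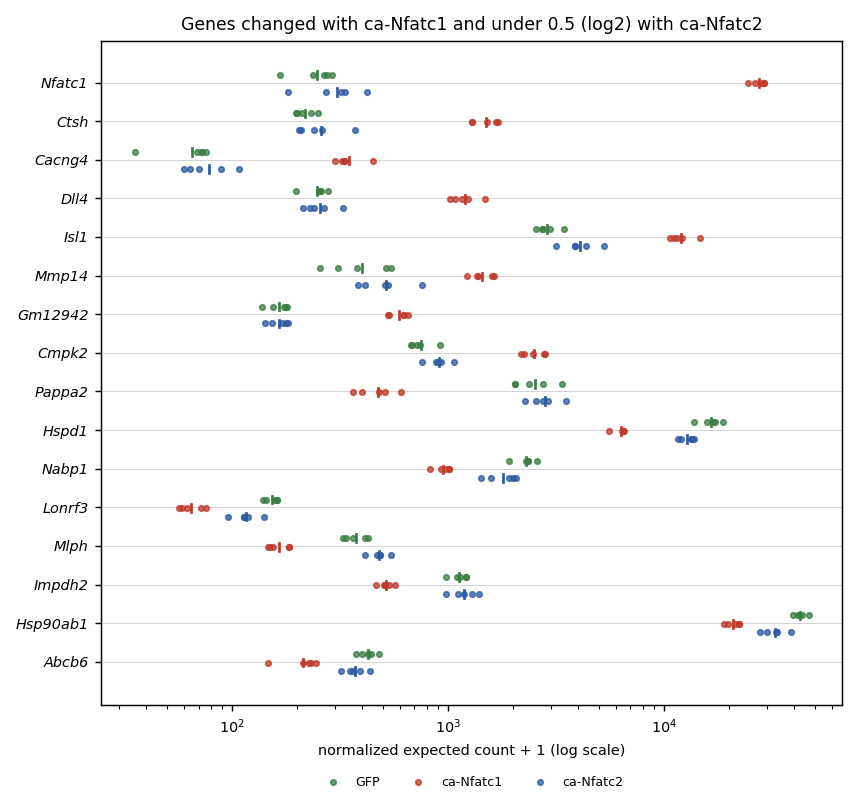
Normalized expected count plus 1 (x axis, log scale) in each of 5 GFP (green), 5 ca-Nfatc1 (red) and 5 ca-Nfatc2 (blue) libraries for 16 genes that passed with ca-Nfatc1, differed between the mutants and were within 0.5 (log2) of GFP with ca-Nfatc2. Vertical bars are group means. The red points stand apart from the green in every row, while the blue lie near or among the green.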

How the data were processed

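Total RNA of transduced mouse islets was sequenced by the authors. Per the labels and the study's methods, they aligned reads with Bowtie to RefSeq transcripts of mm10 and RSEM gave expected counts for each gene. Tool versions are not given in the sources used here. The deposited values are a signal: RSEM expected counts divided by 1 size factor per library (median by ratio), so the values are not whole counts. The authors' columns of fold changes, means and posterior probabilities hold their own comparisons and were not used. A second deposited table repeats 8862 entries of the first with identical values (tested on all of them) and was not used.

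Of 20308 entries, 14151 whose 75th percentile over the libraries exceeded 10 were tested. log2(value + 1) was fitted by limma 3.58.1 (R 4.3.3, trend) over all 15 libraries in 3 groups, and p-values were adjusted by Benjamini-Hochberg over 14151 genes, with a threshold of 0.05. Figures and counts were made with Python 3.11.15, pandas 2.3.3, numpy 2.4.6 and matplotlib 3.10.9. The script was tested on simulated data with known changes. The simulation changed far fewer genes than passed here and had no deviation shared by a day. It therefore checked the code and not the counts of genes given above. Replicate numbers follow the 5 dates of the labels, on each of which 1 pool of islets was divided over the viruses. Deviations of same-day libraries from their group means correlated at 0.1776 to 0.3283 (5 of 5 pairs over 0.1). The 20 pairs of other days ranged from -0.2609 to 0.1642. Their mean (-0.0604) is largely set by the same-day values, since deviations cancel within a group. P-values measure the spread between these pools. Depth was read from the commonest low value in each library, taken as 1 count, and is approximate. In the libraries 51.2 to 57.9% of the values were within 0.02 of a whole multiple of it. Depth limits genes with few counts most: the median SE was 0.248 for means under 100 and 0.0771 for means of at least 1000.

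Named genes were the 12 largest rises and falls with a mean of at least 100, and with a mean of at least 1000, the 10 largest gains and losses in counts, up to 8 members of each of 39 lists by size of change and members that missed the threshold, the 8 largest rises and falls selective for ca-Nfatc1, the 6 strongest genes off in GFP, and genes the paper names. Dyrk1a, Dyrk2, Gipr, Glp1r, Hspa2, Hspa4l, Sqle and the Ugt genes other than Ugt1a6a and Ugt2b34 lie outside it and were chosen after their values were seen. The members and lists were chosen with earlier results of these data known. For 4 list names an alias was matched, and 27 symbols that a spreadsheet had turned into dates (22 tested) are not named. Some genes the rule selects are not reported here. Alternatives were a pseudocount of 10, no filter, a mean of at least 100, quantile normalization, equal totals, the 10 libraries alone, the day as a replicate block, and leaving out each library.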

Additional observations from a re-analysis of the deposited data

Results flagged for a closer look

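For 26 of 446 combinations of a named gene and a group, 1 of the 5 libraries lay far from the other 4, with a gap over 0.71 of the group's whole range. Chance alone marks about 1 in 20 such groups. Values are normalized expected counts. GFP replicate 1 stood far above the others in Cmpk2 (914) and Tmed4 (3837), and below the others in Cacng4 (34.6), Hhex (245) and Rcan1 (408). GFP replicate 2 stood far above the others in Ugt2b36 (36.3). GFP replicate 3 stood far above the others in Abcc8 (16249), and below the others in Arg2 (4.49) and Hsp90aa1 (41795). GFP replicate 4 stood far above the others in Ctrb1 (30.0) and Hspa1b (15974). GFP replicate 5 stood far above the others in Ccl2 (210.0), Cxcl1 (53.1) and Slc26a10 (0.921). The library of ca-Nfatc1 replicate 1 stood far above the others in Col8a1 (2448), and below the others in Fto (1131), Nkx6-1 (1852) and Pparg (200). The library of ca-Nfatc1 replicate 2 stood far above the others in Ins1 (159158) and Ppp3r1 (6068). The library of ca-Nfatc1 replicate 3 stood far above the others in Cacng4 (449), Glp1r (2174), Il2ra (87.9), Pdk4 (104) and Vwce (585), and below the others in Hspd1 (5591). Neither of the ca-Nfatc1 libraries 4 and 5 stood apart in this way.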

How the results depend on the processing

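Leaving out 1 library at a time gave 3810 to 4094 genes higher, 3704 to 4162 lower, 1528 to 1597 at least 2-fold higher, 535 to 605 at least 2-fold lower and 6370 to 7195 that differed between the mutants, and a difference in hormone share of -4.49 to -3.89 percentage points. Counts of genes at least 2-fold lower were 302 when a mean of 100 was required, where 831 were at least 2-fold higher, and 976 after quantile normalization. With the day as a replicate block, 4443 genes were higher and 4723 lower. The block changed the call of Nfatc2, Nkx6-1 and Fto among the genes named, and over the 10 libraries alone also that of Cdkn1a, and of no other. Paired by day, the hormone share differed by -4.14 points in either analysis, and the exact sign-flip test (p = 0.0625) cannot pass the threshold with 5 days. Gcg was reversed by quantile normalization (0.14), which by its construction gives the most abundant genes of each library nearly equal values. For other calls that changed, the cause was not tested. Depth limits genes with means under 100, whose standard errors were largest. The 10 libraries cannot show effects of the virus itself, since all were transduced.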

Other observations

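Glucuronosyltransferases, enzymes that attach glucuronic acid to bilirubin, steroids and drugs, were looked at after their values were seen. Of 8 Ugt1a and Ugt2 genes tested, 6 fell and 2 rose, beside 28.4% of all genes in each direction. In the 6 every ca-Nfatc1 library was below every GFP library, as in 19.9% of all genes. Ugt2b35 was at 108, 176, 175, 107 and 134 with GFP and 1.64, 1.11, 4.27, 3.03 and 4.67 with ca-Nfatc1, a difference of -5.23 ± 0.36. The falls of Ugt2b36 (-3.68), Ugt1a9 (-3.23) and Ugt1a7c (-1.1) started from lower levels. Ugt1a1, which conjugates bilirubin, was at 0, 3.17, 5.31, 2.63 and 2.31 and 19.8, 25.9, 25.5, 26.4 and 30.6, a difference of 3.06 ± 0.43, and Ugt2a1 rose by 3.85 ± 0.33. Ugt1a genes share their last exons and Ugt2b genes are close relatives, so which member the reads came from is uncertain.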
